A study of Triticum aestivum with 8 samples.

Results

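The accessible chromatin regions (ACRs) listed for whole wheat seed at DAP15 were examined for how they lie along the chromosomes. Members were all regions of the DAP15 list outside chromosome 4B, which gave 102128 ACRs of the 420451 ACRs in the 4 lists of the series. A further 3450 of the 105578 DAP15 ACRs lay on chromosome 4B and were left out. ATAC-seq was applied to grain of the bread wheat cultivar AK58 (AiKang58), grown under long days, with 2 sample records at each of 4 stages. Whole seed was taken at DAP15 and DAP20, and endosperm freed of the embryo at DAP5 and DAP9. The labels count these days from fertilization and the study from pollination, and the form DAP is used here. Whole seed is a mixture of endosperm, embryo and seed coat, so that a region open in few cells and one open in many cannot be told apart in a list. Each stage had a single list, with coordinates but no read numbers and no separate list for a replicate, so that depth is unknown and no value below has a replicate error.

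In ATAC-seq, the transposase Tn5 cuts and tags DNA that is not wrapped in nucleosomes, and stretches with many cuts are read as open. Such stretches often lie at promoters, where transcription starts, and at distal elements such as enhancers. Bread wheat carries 3 related subgenomes, A, B and D, in a large genome made mostly of transposable elements. Its genes are denser toward the chromosome ends, while the stretches around the centromeres are poor in genes and rarely recombine. At the middle of grain filling, the endosperm is laying down starch and storage proteins. No gene positions of the build behind the coordinates were used here, so distances to genes were not analysed.

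On a log scale, distances between neighbouring DAP15 ACRs gathered at a near and a far range, with fewer but still many in between. The distance was counted in bases between the end of an ACR and the start of the next on the same chromosome, which gave 102108 distances. The shortest was 151 bp and the median was 15.8 kb (95% interval 15.3 to 16.3 kb). The mean was 130.4 kb, or 8.27 times the median. Of the distances, 10% were below 535 bp and 10% above 385 kb. Intervals here and below are 95% intervals (Wilson for shares) and cover no more than counting error, because ACRs next to each other are not independent.

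Distances under 2 kb made up 22.9% (22.7 to 23.2%), and those over 50 kb made up 39.1% (38.8 to 39.4%). The classes between held 22.4% (2 to 10 kb) and 15.5% (10 to 50 kb). Distances over 50 kb made up 96.1% of all the length between ACRs, and those under 2 kb made up 0.137%. On a log scale the distances had a near peak at 3.16 to 5.62 kb with 8.85% of them and a far peak at 178 to 316 kb with 9.11%. The trough between them, at 17.8 to 31.6 kb, held 5.26%. The trough lay below both peaks on each of the 20 chromosomes. The DAP5, DAP9 and DAP20 lists had their trough at the same distances, with 5.87%, 6.06% and 6.14%.

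**Figure D1:**
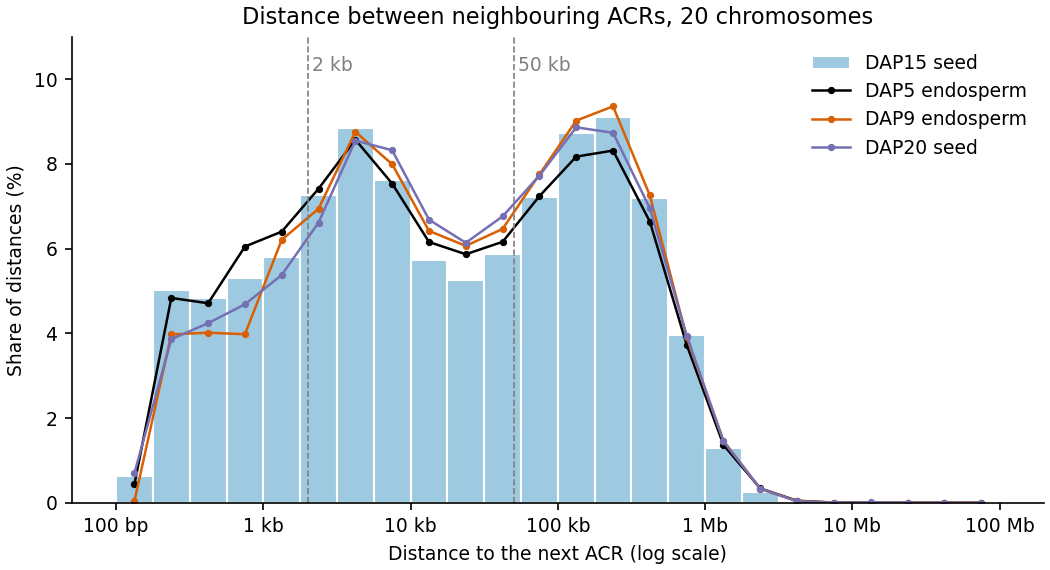
Distances between neighbouring ACRs on 20 chromosomes for DAP15 seed (bars) and the 3 other lists (lines), with dashed lines at 2 kb and 50 kb. The horizontal axis is the distance on a log scale and the vertical axis the share of distances in each bin, in %. The DAP15 bars peak on either side of a trough at 17.8 to 31.6 kb, which holds 5.26% of the distances.

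Short distances followed each other. After a distance under 2 kb, 28.7% of the next distances were also under 2 kb (28.1 to 29.3%, n = 23394), against 21.2% after a distance of 2 kb or more (20.9 to 21.5%, n = 78694). The share was higher after a short distance on 20 of 20 chromosomes. It was also higher in 10 of 10 bins of relative position (each chromosome cut into 10 bins of equal length, numbered from 1 at its first base), although density differs between chromosomes within a bin, and its part in the difference was not tested. Long distances did so as well, with 43.2% of distances over 50 kb after another one and 36.5% after a distance of 50 kb or less. This held on 20 of 20 chromosomes, but in 7 of 10 bins.

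An ACR whose nearest neighbour lay under 2 kb away was counted as part of a run, and an ACR with no neighbour within 50 kb as isolated. Runs held 40093 ACRs, or 39.3% of the list (39.0 to 39.6%). Isolated ACRs numbered 17262, or 16.9% (16.7 to 17.1%). Of the rest, 29669 had their nearest neighbour at 2 to 10 kb and 15104 at 10 to 50 kb. Run ACRs covered 28.9 Mb, or 42.5% of the 67.9 Mb covered by all DAP15 ACRs. Isolated ACRs covered 10.1 Mb, or 14.9%.

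ACRs were wider on average in runs than in isolation, with more wide ACRs, fewer of the narrowest and the same median. Mean width was 720.2 bp in runs (715 to 726 bp) and 585 bp in isolated ACRs (580 to 591 bp), with 670.1 bp and 601 bp for neighbours at 2 to 10 kb and at 10 to 50 kb. The median was 500 bp in each of these classes. ACRs of at least 1000 bp made up 17.4% of run ACRs and 9.95% of isolated ACRs. At the narrow end, 35.4% of run ACRs and 45.8% of isolated ACRs measured exactly 350 bp. Mean width and the share of wide ACRs were higher in runs on 20 of 20 chromosomes. Distances ran from edge to edge, so at a given spacing of midpoints a wider ACR lies nearer its neighbour by construction. With distances between midpoints, run ACRs were 31.5% of the list. Width was not compared in that setting, and how much of the contrast this gives was not tested.

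Most widths, and a smaller part of the short distances, fell on steps of 150 bp. Of the DAP15 ACRs, 38.6% were 350 bp wide, 20.0% were 500 bp and 11.6% were 650 bp, and 95.7% fell on the steps that start at 350 bp and go up by 150 bp. The authors' bins were 150 bp long and overlapped by 50 bp. Bins within 150 bp were joined, so that no distance between ACRs could be much shorter than those observed. How these settings relate to steps of 150 bp was not tested. Among the distances under 2 kb, 11.7% were on steps of 150 bp counted from 250 bp, as at 250 bp (1878 distances) and 400 bp (523 distances). That share was 14.5% in the DAP5 list, 60.4% in the DAP9 list and 3.43% in the DAP20 list. Its part in the shares of run ACRs was not tested.

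Run and isolated ACRs were found at different places along the chromosome and in different numbers of the other lists. The outer bins (1 and 10) held 41.3% of run ACRs and 21.9% of isolated ACRs, with the higher share in runs on 20 of 20 chromosomes. The middle bins (5 and 6) held 10.8% of run ACRs and 19.0% of isolated ACRs. An overlap of at least 1 bp with an ACR of DAP5, DAP9 and DAP20 alike was found for 43.1% of run ACRs (42.6 to 43.6%) and 38.5% of isolated ACRs (37.8 to 39.2%). No overlap in any of them was found for 18.1% of run ACRs and 21.9% of isolated ACRs.

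The difference in presence was not alike in the 3 lists. Overlap with the DAP5 list was found for 65.1% of run ACRs and 55.1% of isolated ACRs, and overlap with the DAP9 list for 67.8% of run ACRs and 60.8% of isolated ACRs. With the DAP20 list, the other list of whole seed, it was 58.4% of run ACRs and 60.3% of isolated ACRs. A wider ACR overlaps others more easily by construction, so presence was also counted within width classes. Among ACRs of exactly 350 bp, 21.4% of those in runs and 20.5% of isolated ones were in every other list. Among ACRs of at least 1000 bp, the shares were 80.5% in runs and 82.9% in isolation. Between these widths too the isolated ACRs had the higher share, with 52.7% in runs and 55.2% in isolation above 500 bp and under 1000 bp. The direction over all widths turned when a reciprocal overlap of 50% was asked for, where runs minus isolated ACRs came to -6.46 percentage points.

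**Figure D2:**
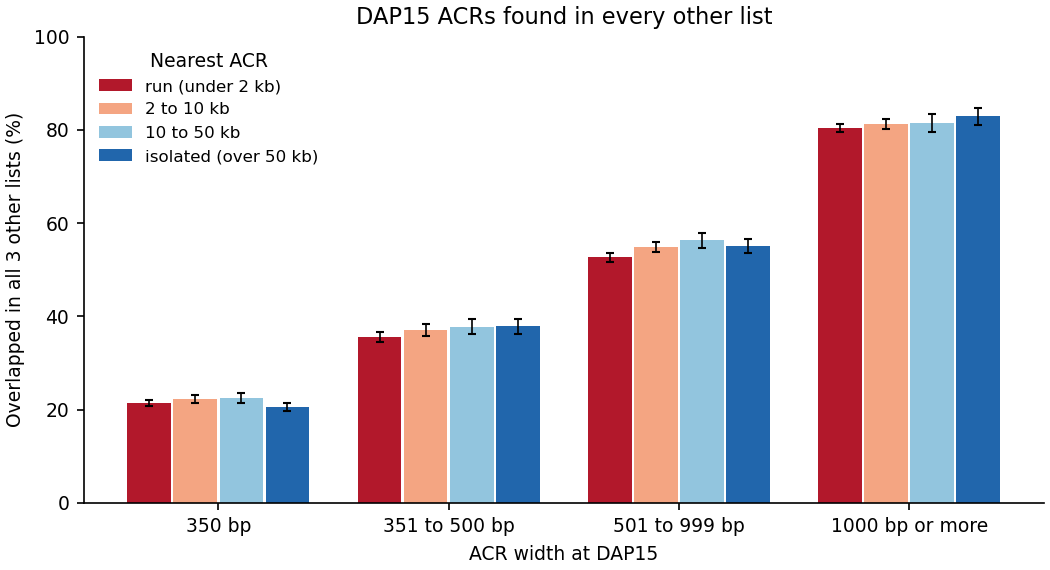
Share of DAP15 ACRs that overlap an ACR in every other list, by width class and by the distance to the nearest ACR (4 classes). Bars start at 0 and error bars are Wilson 95% intervals. The shares climb with width in each class, to 80.5% in runs and 82.9% in isolation among ACRs of at least 1000 bp.

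The run ACRs formed 16693 runs, most of them pairs. Pairs made up 12238 runs (73.3%), and 3058 runs had 3 ACRs, 893 had 4 and 323 had 5. Runs of 7 or more ACRs numbered 93. The median span from the first to the last base was 1954 bp for pairs, 5397 bp for runs of 4 and 11912 bp for runs of 7 or more. Of the summed span of all runs, 61.3% was open.

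Longer runs held wider ACRs and lay nearer the chromosome ends. Mean width was 678 bp in pairs (671 to 684 bp), 751 bp in runs of 3, 812 bp in runs of 4, 845 bp in runs of 5, 824 bp in runs of 6 and 957 bp in runs of 7 or more (893 to 1021 bp). Distances from edge to edge favour wide ACRs in runs by construction, and the part of this in these widths was not tested. The outer bins held 38.3% of the ACRs in pairs, 43.4% of those in runs of 3 and 68.4% of those in runs of 7 or more. Presence in every other list moved less, with 42.3% in pairs and 46.0% in runs of 5 or more. In runs of 7 or more it was 44.0% (40.4 to 47.6%). Among pairs whose first ACR measured at least 1000 bp, the second did so in 23.2% (21.3 to 25.2%, n = 1808), against 13.4% where the first was narrower (n = 10430). Runs of 7 or more were spread over the genome, with 11 on 3B, 9 on 1D and none on 5D.

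The longest runs were divided into other numbers of ACRs in the other lists. A run of 13 ACRs, the most in the list, lay on 5B at 196232997 to 196254315 (coordinates counted from 1 in the authors' build, which is not given in the sources used here). It spanned 21319 bp, of which 13550 bp were open, with distances of 248 to 1842 bp between its ACRs. Of its 13 ACRs, 5 overlapped an ACR in every other list. The same span held 6 ACRs in the DAP5 list, 6 in DAP9 and 9 in DAP20. Its outer neighbours were 1083 kb and 86.3 kb away.

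A second run of 13 lay in bin 10 of 5A, at 670612118 to 670631426, and 2 of its ACRs were in every other list. Its span of 19309 bp held 9 ACRs in DAP5, 8 in DAP9 and 4 in DAP20. The run with the longest span, 29256 bp, was near the start of 1D at 565881 to 595136. It held 11 ACRs that covered 23642 bp, with a widest ACR of 9350 bp and none of 350 bp. Its outer neighbours were 2.25 kb away, just past the 2 kb limit for a run, and 1451 kb away. The other lists divided the same span into 9 ACRs (DAP5), 8 ACRs (DAP9) and 13 ACRs (DAP20).

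The widest run ACR was 11150 bp long, on 3A at 632541938 to 632553087, with its only run partner 196 bp away. The widest isolated ACR was 8300 bp long, on 7D at 366445574 to 366453873, and its nearest neighbour was 163 kb away. Both overlapped ACRs in every other list. The ACR farthest from any neighbour was in bin 3 of 1B at 202005069 to 202005418. It was 350 bp wide and lay 56.3 Mb from the ACR before it and 37.8 Mb from the next, and it overlapped an ACR in the DAP5 and DAP9 lists but not in the DAP20 list.

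The longest stretches without a DAP15 ACR were on 1B. The longest distance was 76.6 Mb, on 1B from 15752645 to 92306975, and the other lists held 7 (DAP5), 1 (DAP9) and 4 (DAP20) ACRs in it. Of the 8 distances over 10 Mb in the list, 7 were on 1B. The remaining one, of 12.7 Mb, was on 6B. Bins 1 to 3 of 1B held 8 ACRs at DAP15, against 923 on 1A and 1103 on 1D, and the other lists were as bare there (14 ACRs in DAP5, 8 in DAP9 and 13 in DAP20). Without read numbers, closed chromatin cannot be told apart there from sequence in which no reads were placed. Outside 1B and 6B the longest distance of a chromosome was 2.29 to 7.30 Mb. Counting all 20 chromosomes, the longest distance lay in bins 4 to 6 on 10 of them and in bins 3 to 7 on 13. It held ACRs of every other list on 9 chromosomes and was empty in every other list on 1 (3B).

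Along relative chromosome position, the ACRs were densest at the ends and thinnest in bins 3 to 6. Chromosome length was taken as the largest end coordinate in any list. Over the 20 chromosomes together, bin 1 held 15163 ACRs (11.3 per Mb), bin 4 held 5441 (4.06 per Mb), bin 5 held 6776 (5.06 per Mb), bin 6 held 5802 (4.33 per Mb) and bin 10 held 22493 (16.8 per Mb). Bin 10 held more ACRs than bin 1 on 16 of 20 chromosomes. The bin with the fewest ACRs was one of bins 3 to 6 on 19 chromosomes, and on 1B it was bin 1, with 2 ACRs. The median distance was 10.6 kb in bin 1, 40.8 kb in bin 2, 64.8 kb in bin 3, 45.3 kb in bin 4, 35.9 kb in bin 5, 74.6 kb in bin 6, 45.0 kb in bin 7 and 7.87 kb in bin 10. It did not follow density throughout, since bin 4 had the fewest ACRs per Mb and a shorter median distance than bins 3 and 6.

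Run ACRs followed this gradient, and isolated ACRs were spread almost evenly. Run ACRs made up 41.4% of the ACRs of bin 1, 31.9% of those of bin 6 and 45.7% of those of bin 10, while isolated ACRs made up 11.9%, 28.4% and 8.79% of the same bins. Per Mb, the highest bin held 5.72 times as many run ACRs as the lowest, with a range of 1.34 to 7.68 per Mb. For isolated ACRs the same ratio was 1.47, with a range of 1.01 to 1.48 per Mb. The outer bins held 3.81 times as many run ACRs per Mb as the middle bins, and 1.15 times as many isolated ACRs. The ratio was larger for run ACRs on 20 of 20 chromosomes. By construction, dense stretches leave less room for an isolated ACR, and how much of the contrast this gives was not tested.

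**Figure D3:**
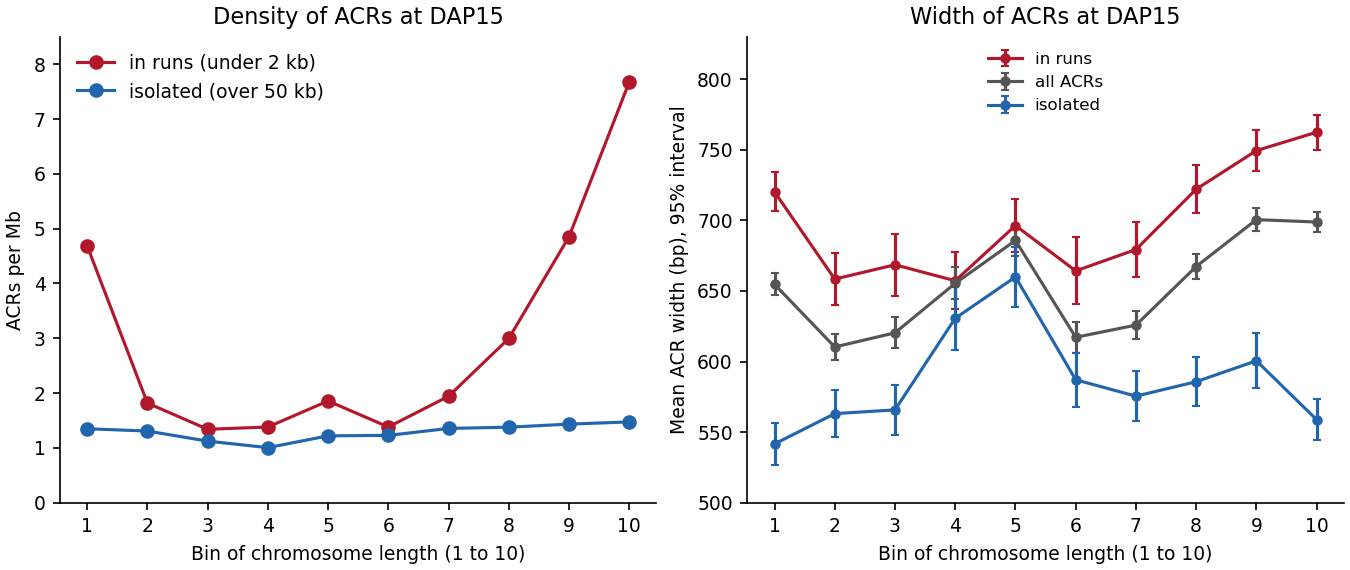
DAP15 ACRs along relative chromosome position, in 10 bins of length summed over 20 chromosomes, for run ACRs and isolated ACRs. The left panel gives ACRs per Mb and the right one mean width in bp with 95% intervals, there also for all ACRs, on an axis that starts at 500 bp. Run ACRs per Mb range from 1.34 to 7.68 and isolated ACRs from 1.01 to 1.48, and isolated ACRs are widest in bin 5, at 659.9 bp.

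Between the outer and the middle bins, width differed in opposite directions for the 2 classes. Run ACRs averaged 746 bp in the outer bins and 683 bp in the middle bins, a difference of 63.8 bp (46.2 to 81.3 bp), and were wider outside on 18 of 20 chromosomes. Isolated ACRs averaged 551 bp in the outer bins and 623 bp in the middle bins. That difference was -72.7 bp (-90.4 to -55.1 bp), and isolated ACRs were wider outside on 2 of 20 chromosomes. Over all ACRs the difference was smaller than in either class, with 681 bp outside and 654 bp in the middle, a difference of 26.9 bp (17.4 to 36.4 bp) and 14 of 20 chromosomes in that direction.

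The mean width was not smooth along the chromosome. It was 655 bp in bin 1, 610.3 bp in bin 2, 620.4 bp in bin 3, 655 bp in bin 4, 686 bp in bin 5 and 617 bp in bin 6. Toward the other end it was 701 bp in bin 9 and 699 bp in bin 10. In isolated ACRs the interior rise took in bins 4 and 5. They averaged 566 bp in bin 3, 631 bp in bin 4, 659.9 bp in bin 5 and 587 bp in bin 6. Beyond it they did not narrow steadily, with 576 bp in bin 7, 586 bp in bin 8, 601 bp in bin 9 and 559 bp in bin 10. Run ACRs rose in bin 5 but not in bin 4. Their means were 669 bp in bin 3, 657 bp in bin 4, 696 bp in bin 5 and 664 bp in bin 6. Over all ACRs, bin 4 or bin 5 was the widest of bins 3 to 7 on 18 of 20 chromosomes. The exceptions were 5B (bin 3) and 7D (bin 6). Bin 5 averaged 682 to 691 bp when each chromosome was left out in turn. The other lists had the same feature, with 765 bp in bin 5 and 696 bp in bin 6 in DAP5, 787 bp and 717 bp in DAP9, and 572 bp and 503 bp in DAP20.

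Isolated ACRs of bins 4 and 5 also had the highest presence in the other lists among the 10 bins when all widths were counted. In bin 5, 45.4% of isolated ACRs overlapped an ACR in every other list (43.0 to 47.8%, n = 1636), and in bin 4 the share was 44.9%. Bin 1 had 34.7% (32.5 to 36.9%, n = 1809), bin 3 had 34.6%, bin 6 had 36.7% and bin 10 had 41.0%. Bin 5 exceeded bin 1 on 16 of 20 chromosomes and bin 10 on 13. Wide isolated ACRs of at least 1000 bp made up 16.4% of isolated ACRs in bin 5, 6.80% in bin 1 and 7.59% in bin 10. Wider ACRs overlap more easily, and among isolated ACRs of exactly 350 bp the order was another one. Presence in every other list was then 23.2% in bin 4 (19.9 to 26.8%) and 21.7% in bin 5, while it was 23.7% in bin 9, 23.0% in bin 10 (20.4 to 25.8%) and 19.3% in bin 1 (16.8 to 22.0%). At this width bins 4 and 5 were thus not above the last bins.

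**Figure D4:**
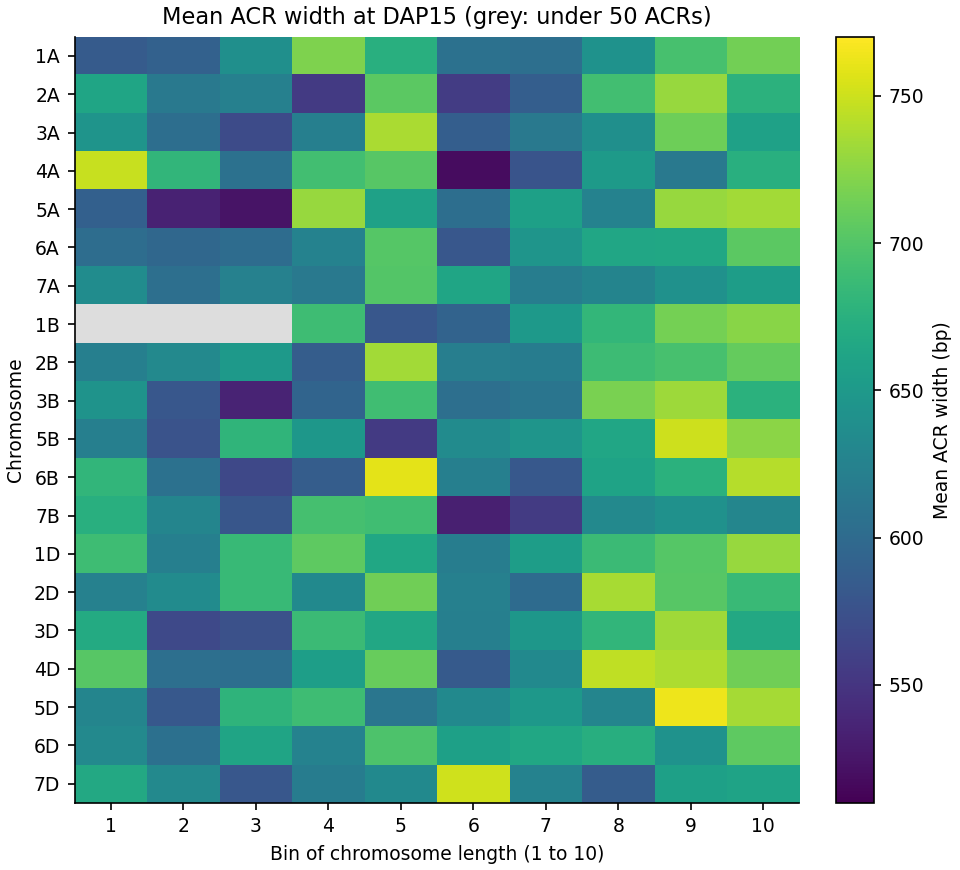
Mean width of DAP15 ACRs, in bp as colour, for each of 20 chromosomes (down) and 10 bins of chromosome length (across). Cells with under 50 ACRs, bins 1 to 3 of 1B, are grey. The values range from 519 bp in bin 6 of 4A to 764 bp in bin 9 of 5D.

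The chromosomes differed more in the distance between ACRs than in the width of the ACRs. ACR numbers ranged from 3663 on 1B to 5990 on 2D, and density from 5.31 per Mb on 1B to 10.4 per Mb on 1D. Without its longest distance, 1B had 5.97 ACRs per Mb. Its 7 distances over 10 Mb together took up 237 Mb of its 690 Mb, and density without all 7 was not computed. The median distance ranged from 9.71 kb on 4D to 27.3 kb on 7A, a ratio of 2.81. Run ACRs were 43.3% of the ACRs of 4D at the high end and 36.2% of those of 7A at the low end, and isolated ACRs 20.9% on 6A and 12.2% on 1D. Mean width spanned a ratio of 1.09, with 690 bp on 4D and 635 bp on 7B. The outer bins held 46.5% of the ACRs of 6B and 30.4% of those of 5D. On 1B, with its bare start, 40.9% of ACRs were in runs and 16.1% isolated, and the median distance was 14.4 kb, so that its shares lay inside the range of the other chromosomes.

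The spacing followed the subgenomes. The median distance averaged 19.7 ± 4.04 kb on A chromosomes and 17.2 ± 3.48 kb on B chromosomes, against 12.8 ± 2.10 kb on D chromosomes (SD over 7, 6 and 7 chromosomes). Within homoeologous groups, that is the chromosomes of like number, A exceeded D in 7 of 7 groups by a mean of 6.90 kb and B exceeded D in 5 of 6 by 3.93 kb. Isolated ACRs made up 18.8 ± 1.22% on A chromosomes and 17.5 ± 1.48% on B chromosomes, against 14.6 ± 1.34% on D chromosomes. A exceeded D in 7 of 7 groups and B exceeded D in 6 of 6. Run ACRs made up 37.8 ± 0.782% on A chromosomes and 39.4 ± 1.34% on B chromosomes, against 40.7 ± 1.92% on D chromosomes, lower on A in 7 of 7 groups and lower on B in 4 of 6.

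Mean width differed little between the subgenomes, with 658 ± 11.1 bp on A chromosomes, 666 ± 17.7 bp on B chromosomes and 672 ± 15.7 bp on D chromosomes. It was nonetheless lower on A than on D in 7 of 7 groups, by a mean of 13.4 bp. D chromosomes held more ACRs per Mb than A chromosomes in 7 of 7 groups and than B chromosomes in 6 of 6. By direction alone, A was denser than B in 5 of 6 groups but had a lower share of run ACRs in 5 of 6 and a longer median distance in 4 of 6. The density difference was small beside its spread, at 0.295 ± 0.999 per Mb (A minus B, SD over 6 groups). It ranged from 7.31 on 1A against 5.31 on 1B, with its bare start, to 6.16 on 6A against 7.26 on 6B. In group 7 it was 6.69 against 6.67 per Mb. Density without group 1 was not compared. Across the 20 chromosomes, as a description only, density had r = -0.793 with the share of isolated ACRs and r = 0.553 with the share of run ACRs, and the share of run ACRs and mean width had r = 0.808. Distances from edge to edge tie the share of run ACRs to width in part by construction. Chromosomes share the same library, and these values carry no test.

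**Figure D5:**
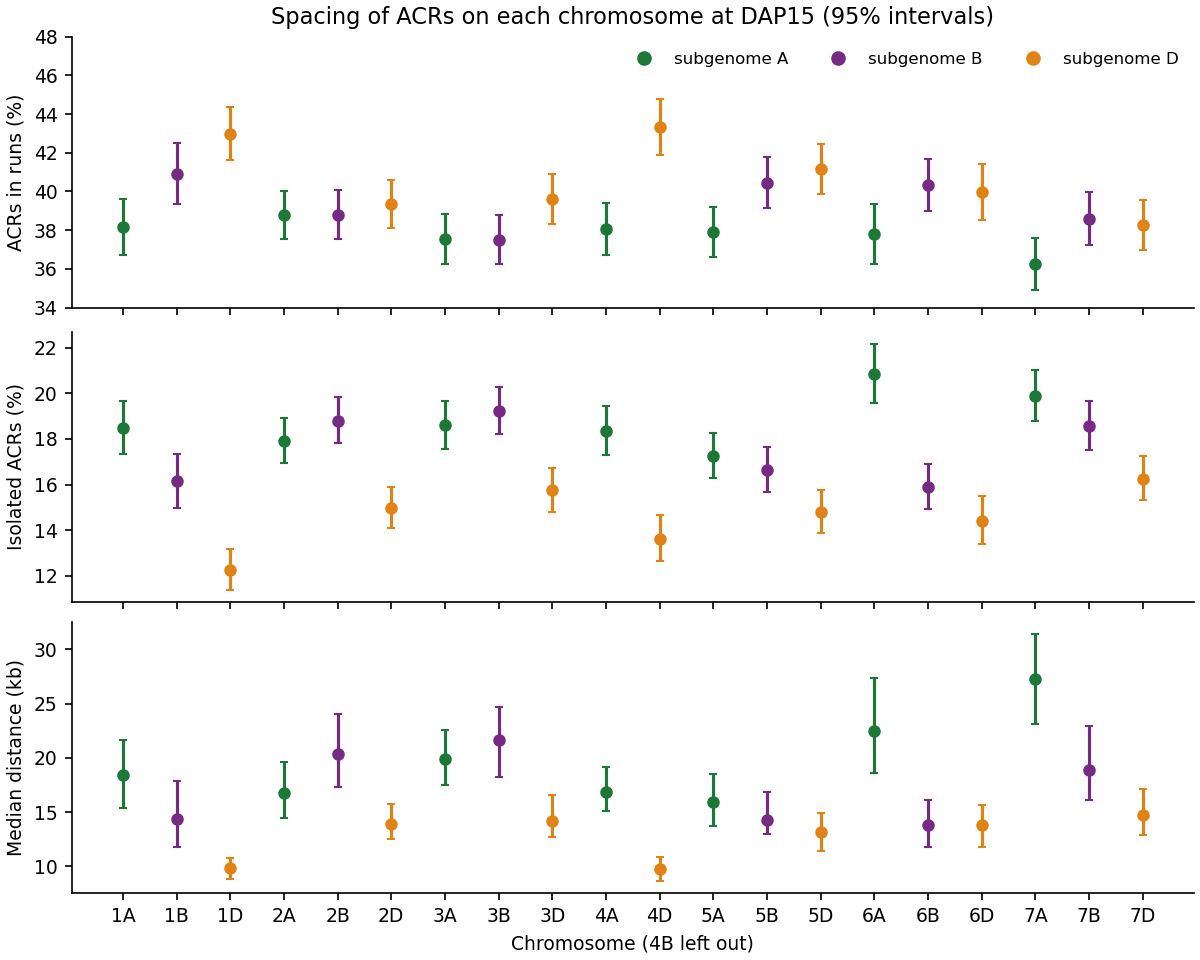
Share of run ACRs (%), share of isolated ACRs (%) and median distance to the next ACR (kb), from top to bottom, for each of 20 chromosomes of the DAP15 list, coloured by subgenome. Error bars are 95% intervals, and the vertical axes do not start at 0. The median distance ranges from 9.71 kb on 4D to 27.3 kb on 7A.

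Set beside the other lists, the DAP15 list had a spacing between those of DAP5 and DAP9, and its ACRs were intermediate in width. The median distance was 15.8 kb at DAP15, while DAP5 had 14.5 kb, DAP9 20.8 kb and DAP20 19.4 kb. It was below DAP9 and below DAP20 on 20 of 20 chromosomes and above DAP5 on 15. Run ACRs were 39.3% at DAP15, while DAP5 had 40.6%, DAP9 34.2% and DAP20 35.2%, above DAP9 and DAP20 on 20 of 20 chromosomes and below DAP5 on 17. Isolated ACRs were 16.9% at DAP15, against 16.0%, 18.1% and 17.8% at DAP5, DAP9 and DAP20. That order against DAP9 turned among ACRs of at least 500 bp, where DAP15 was higher by 1.72 percentage points. Which list lay nearer also depended on the setting. In the share of run ACRs, DAP15 minus DAP5 was -1.31 points and DAP15 minus DAP9 5.11 points as listed, but -3.98 and 0.754 points among ACRs of at least 500 bp, and -2.72 and 1.43 points after merging within 500 bp.

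In width, DAP15 ACRs averaged 665 bp, while those of DAP5 averaged 756 bp, of DAP9 785 bp and of DAP20 541 bp. The surplus of run over isolated ACRs was 135 bp at DAP15, while it was 195 bp in DAP5, 195 bp in DAP9 and 84.3 bp in DAP20. ACRs of exactly 350 bp were 38.6% at DAP15, against 25.4%, 26.2% and 29.4% at DAP5, DAP9 and DAP20, and highest at DAP15 on 20 of 20 chromosomes. The DAP15 list held no narrower ACRs, while each other list held some. Those are not counted in these shares, so the shares do not compare the narrowest ACRs of the lists. Lists with wide ACRs can join what another list holds as neighbours. Of the DAP15 distances under 2 kb, 16.6% lay inside a single ACR of the DAP5 list, 19.0% inside one of DAP9 and 5.17% inside one of DAP20. In the other direction, the DAP15 list spanned 7.52% of the distances under 2 kb of DAP5, 6.08% of those of DAP9 and 17.9% of those of DAP20. Stage, tissue, depth and peak calling cannot be told apart in these contrasts, since each stage had 1 list and the tissue changed between DAP9 and DAP15.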

How the data were processed

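ATAC-seq libraries of AK58 grain (8 sample records, 2 per stage) were processed by the authors. According to the methods, reads were trimmed with fastp (the labels' tool list names Trimmomatic), aligned with Bowtie2 and cleared of duplicates with Picard. Peaks called with MACS2 were cut into bins of 150 bp that overlapped by 50 bp, bins dense in Tn5 insertions were kept, and those within 150 bp were merged with bedtools. Blacklisted and organelle-like peaks were discarded. The density minimum and the pooling of replicates were not stated, and the genome build is not given in the sources used here. The deposited values were ACR coordinates (chromosome, start and end), with no counts or scores.

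Distances, runs (under 2 kb), isolated ACRs (over 50 kb) and 10 bins of chromosome length were computed with Python 3.11.15, numpy 2.4.6, pandas 2.3.3 and scipy 1.17.1, and drawn with matplotlib 3.10.9. The code was tested on simulated data. No significance test was run, since each stage had 1 list. Shares carry Wilson 95% intervals, medians order-statistic intervals and means normal intervals. The features named are the runs with the most ACRs and the longest span, the widest run ACR and isolated ACR, the ACR farthest from a neighbour, the longest distance, and the chromosomes with the highest and lowest value of a measure. Any other feature was picked with its value in view. The members and lists were chosen with earlier results of these data known. Alternatives were other distance limits, midpoints, merging within 500 bp, width minima, 20 bins of length, reciprocal overlap and keeping 4B. Distances to genes were not analysed here.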

Additional observations from a re-analysis of the deposited data

How the results depend on the processing

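Of 79 recalculations of 21 results, 37 stayed within the spread set for them, 40 moved and 2 reversed. The shares depend on the limits chosen, and those set on merged or wider ACRs depend on fewer ACRs being left. The cause of the other shifts was not tested. Depth is unknown, and what it limits was not judged. No paired analysis was possible because each stage had 1 list and no replicate had its own, and no replicate was left out for the same reason. Lengths from a reference genome were not run, since none of the matching build was used. Leaving out 1B, or homoeologous group 1, was chosen after seeing the data and moved none of the results it was run on.

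The median distance was 16.4 kb between midpoints, 26.5 kb after merging within 500 bp and 43.9 kb for ACRs of at least 500 bp, and distances under 2 kb were 17.6%, 14.8% and 17.0% under the same settings. Run ACRs were 28.5% at under 1 kb, 56.9% at under 5 kb, 26.7% merged, 29.9% at 500 bp or more and 31.5% by midpoints. Isolated ACRs were 24.5% at over 20 kb, 10.9% at over 100 kb, 20.2% merged and 25.7% at 500 bp or more. Run minus isolated width was 123 bp with limits of 5 and 100 kb and 174 bp at 500 bp or more, and presence in every other list differed by 7.97 percentage points at 500 bp or more and by -6.46 with reciprocal overlap of 50%. Outer minus middle width was 54.4 bp (all) and 92.5 bp (run ACRs) with 20 bins, and 51.5 bp and 95.3 bp merged. The median distance differed between A and D by 18.1 kb at 500 bp or more and 11.8 kb merged, and between B and D by 14.4 kb and 8.91 kb.

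Run ACRs, DAP15 minus DAP5, came to -0.705 percentage points at 350 bp or more, -3.98 at 500 bp or more and -2.72 merged. DAP15 minus DAP9 came to 0.754 at 500 bp or more and 1.43 merged, and DAP15 minus DAP20 to 7.81 at 350 bp or more, 7.79 at 500 bp or more and 2.72 merged. Isolated ACRs, DAP15 minus DAP5, came to 0.131, 3.10 and 1.42 points under those settings, DAP15 minus DAP9 to 1.72 at 500 bp or more and -0.174 merged, and DAP15 minus DAP20 to -4.55 at 350 bp or more and -7.38 at 500 bp or more.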
